A study of Mus musculus with 2 samples.

Results

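Type 1 conventional dendritic cells (cDC1) were described in the white blood cells of mouse melanomas. They were chosen by molecule counts per cell. A cell was gated as cDC1 when it held at least 2 molecules of Xcr1 and Clec9a together, at most 1 of Cd3e and Cd3d, at most 1 of Csf1r, fewer than 5 of Siglech and not at least 2 of both Ccr7 and Fscn1. This left 611 of 18112 retained cells, 388 of 8697 in the FDPS-knockout library and 223 of 9415 in the control library. Molecules were counted as unique molecular identifiers (UMIs), which mark each captured transcript once. The levels of the 8 genes in the rule chose the cells and are given as a description only.

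Viable cells positive for CD45, the surface protein of white blood cells, had been sorted from tumours that grew under the skin after injection of the mouse melanoma line B16-F10 and were taken on day 14. In the knockout group the tumour line lacked FDPS, or farnesyl diphosphate synthase, which makes a lipid used for sterols and protein prenylation. The control group has the genotype label WT and the letters VC in its title, which the labels do not explain. Both groups share the cell line and the day, and the labels name no treatment, clone, guide, host strain or age. Each group was 3 tumours and gave 1 library, with no map from cells to tumours, so there was no replicate and no test between groups. All differences below are between 2 libraries, and intervals are 95% intervals of counting error alone.

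cDC1 take up dying cells and present their antigens on MHC class I to CD8 T cells, a process called cross-presentation. They depend on the transcription factors Irf8 and Batf3, sense dead cells through Clec9a, and answer the chemokine Xcl1 through Xcr1. On stimulation they raise Cd40, costimulatory ligands and NF-kappaB genes, make interleukin 12 and Cxcl9, and leave the tissue through Ccr7.

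The gate matched its label in both libraries, but less purely in the control library. The 4 genes given as markers of these cells were Xcr1, Clec9a, Naaa and Irf8, and the gate required the first 2, so their excess over other cells was fixed by the rule. The 8 further cDC1 genes, which the rule did not use, were Batf3, Itgae, Cadm1, Tlr3, Wdfy4, Ifi205, Cd24a and Flt3. They summed to 4509 CPM (UMIs scaled to the same total in each group of summed cells) in knockout gated cells and 3497 CPM in control gated cells, against 321 and 518 CPM in all other retained cells. At least 1 UMI of them was found in 385 knockout and 222 control gated cells. Naaa, a lysosomal amidase typical of cDC1, was at 1107 and 1115 CPM (96.7 and 115 CPM elsewhere), and Irf8 at 1313 and 1094 CPM (194 and 222 CPM elsewhere). Cells just inside the threshold looked less like cDC1 than the rest. With a sum of Xcr1 and Clec9a of 2 to 4 (125 knockout and 87 control cells), Wdfy4, which cross-presentation needs, was at 840 and 287 CPM. With a sum of 5 or more (263 and 136 cells) it was at 2812 and 2143 CPM. Just outside the threshold, at a sum of 1 (139 and 132 cells), it was at 410 and 179 CPM.

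Other cells' RNA was unequal between the gated cells of the libraries. Macrophage markers summed to 152 CPM in knockout gated cells and 1538 CPM in control ones, and none of the 7 was at 0. At least 2 UMIs of the macrophage genes C1qa, C1qb and C1qc were held by 26 knockout cells (6.70%) and 129 control cells (57.8%). Melanoma markers summed to 84.3 and 1706 CPM. At least 10 UMIs of Pmel, Mlana, Dct and Tyrp1 were held by 0 knockout and 6 control cells, and 1 of these held 2309 of the control gate's 8344. A strict subset was therefore drawn after seeing the data, and most results are given in it too. It held the gated cells with at least 5 UMIs of Xcr1 and Clec9a, fewer than 10 of the C1q genes and fewer than 10 of the 4 melanoma genes, 260 knockout cells (67.0% of the gate) and 131 control cells (58.7%). There the macrophage sums were 52.9 and 155 CPM and the melanoma sums 59.0 and 112 CPM, which the limits of the subset held down. The 8 further cDC1 genes, which it did not use, summed to 5279 and 5181 CPM. Free RNA of the whole library, estimated by counting all C1q UMIs as free, came to 12.4% of UMIs in knockout and 32.5% in control gated cells. The part of the remaining difference in other cells' RNA was not tested.

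Depth in the gated cells was close between libraries. The median gated cell held 18854.5 UMIs (knockout) or 20729 UMIs (control), and the gates summed to 8354554 and 5544954 UMIs. Of the barcode sequences, 30 occurred in both libraries, none of them among gated cells of both. Doublet scores marked 18 gated cells in each library. T cell markers, which include the gate genes Cd3e and Cd3d, summed to 38.9 and 21.1 CPM, and plasmacytoid DC markers, which include the gate gene Siglech, to 352 and 543 CPM, so the rule held both sums down. NK cell markers summed to 117 and 13.5 CPM, against 1280 and 675 CPM in all other retained cells. Monocyte markers summed to 843 and 960 CPM, near their level in the other cells (1102 and 1015 CPM). B cell markers summed to 129 and 108 CPM, against 696 and 145 CPM in the other cells. Neutrophil (27.3 and 8.66 CPM), mast cell or basophil (1.08 and 0.18 CPM), stromal (48.7 and 50.5 CPM) and erythroid markers (2.99 and 6.31 CPM) were low. The cDC2 markers summed to 307 and 316 CPM, against 420 and 543 CPM in the other cells.

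Gated cDC1 made up 4.46% (4.04 to 4.92) of retained knockout cells and 2.37% (2.07 to 2.70) of retained control cells, a ratio of 1.88 (1.60 to 2.22). The step on Csf1r, the growth factor receptor of macrophages, took out more control than knockout cells, 300 (54.6% of those reaching it) against 87 (14.3%). With Csf1r and C1q barcodes left out of the total, the shares were 5.07% and 3.85%, and the ratio was 1.32 (1.11 to 1.57). In the strict subset the shares were 2.99% and 1.39%, a ratio of 2.15 (1.75 to 2.65). The other DC gates differed in direction from each other. The cDC2 gate, built on Cd209a and Mgl2, held 400 knockout and 118 control cells (ratio 3.67, 2.99 to 4.50), and the mature gate, built on Ccr7 and Fscn1, held 79 and 139 cells (ratio 0.615, 0.468 to 0.81). Among the cells of the 3 DC gates, cDC1 were 44.8% (41.4 to 48.1) and 46.5% (41.9 to 51.0), so the share of cDC1 among DCs was not distinguishable at this count.

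**Figure D1:**
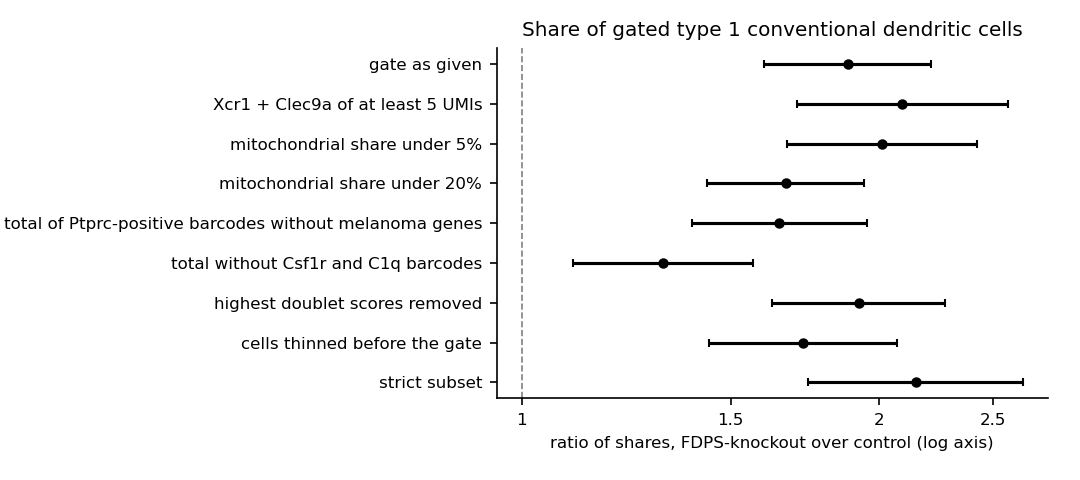
Ratio of the cDC1 share, FDPS-knockout over control, with its 95% counting interval, on a log axis, under the gate as given and under 8 other settings. All 9 ratios lie above 1, and the lowest, 1.32, is that with macrophage-like barcodes left out of the total.

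Dividing cells were common in both libraries. At least 2 UMIs of the 5 division genes Mki67, Top2a, Cenpf, Ube2c and Birc5 were held by 133 of 388 knockout gated cells (34.3%, 29.6 to 39.2) and 101 of 223 control gated cells (45.3%, 38.6 to 52.1). With each cell thinned to 5000 UMIs, which left out 18 and 11 shallower cells, the shares were 25.7% and 29.2%, a ratio of 0.878 (0.669 to 1.15). In the strict subset, at median depths of 21837 and 22293 UMIs, the shares were 39.6% and 51.1%, a ratio of 0.775 (0.619 to 0.9698), and thinned they were 26.8% and 32.6%, a ratio of 0.825 (0.599 to 1.14). The share was lower in the knockout library in each of these versions, and the interval of the ratio included 1 after thinning but not before. With at least 4 UMIs asked of each gated cell the ratio was 0.870 (0.676 to 1.12). Of 25 measured division genes 0 were higher and 3 lower by more than 1.5-fold in the knockout gate, while 12.3% of all genes were lower.

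UMIs were summed over gated cells and scaled to CPM, and log2 ratios of CPM plus 5 were taken, knockout over control. Of the 8563 genes with a mean of at least 10 CPM, 1249 (14.6%) were higher by more than 1.5-fold in the knockout library and 1049 (12.3%) lower, 26.8% in all, with a median of 0.07. In the strict subset 1101 (12.9%) were higher and 459 (5.36%) lower. A gene is called stable below when it lay past 1.5-fold in the same direction in 5 versions. These were the gate and the strict subset, each with and without the gene's richest cell, and the strict subset without cells with at least 2 UMIs of Ccr7 or Fscn1 or 5 of Il12b. By this rule 751 genes (8.77%) were stably higher and 338 (3.95%) stably lower. Long genes tended to be higher, the median being -0.35 for the shortest genes (median span 6.26 kb) and 0.45 for the longest (median span 108 kb), or -0.23 and 0.40 in the strict subset. Centred within 10 classes of gene length, the log2 ratios were 1.82 for Cd40, 1.14 for Relb, 0.82 for Il15, 1.48 for Cxcl9, 1.34 for Timd4, 0.71 for Kit and 1.72 for Ptpro, genes described below.

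**Figure D2:**
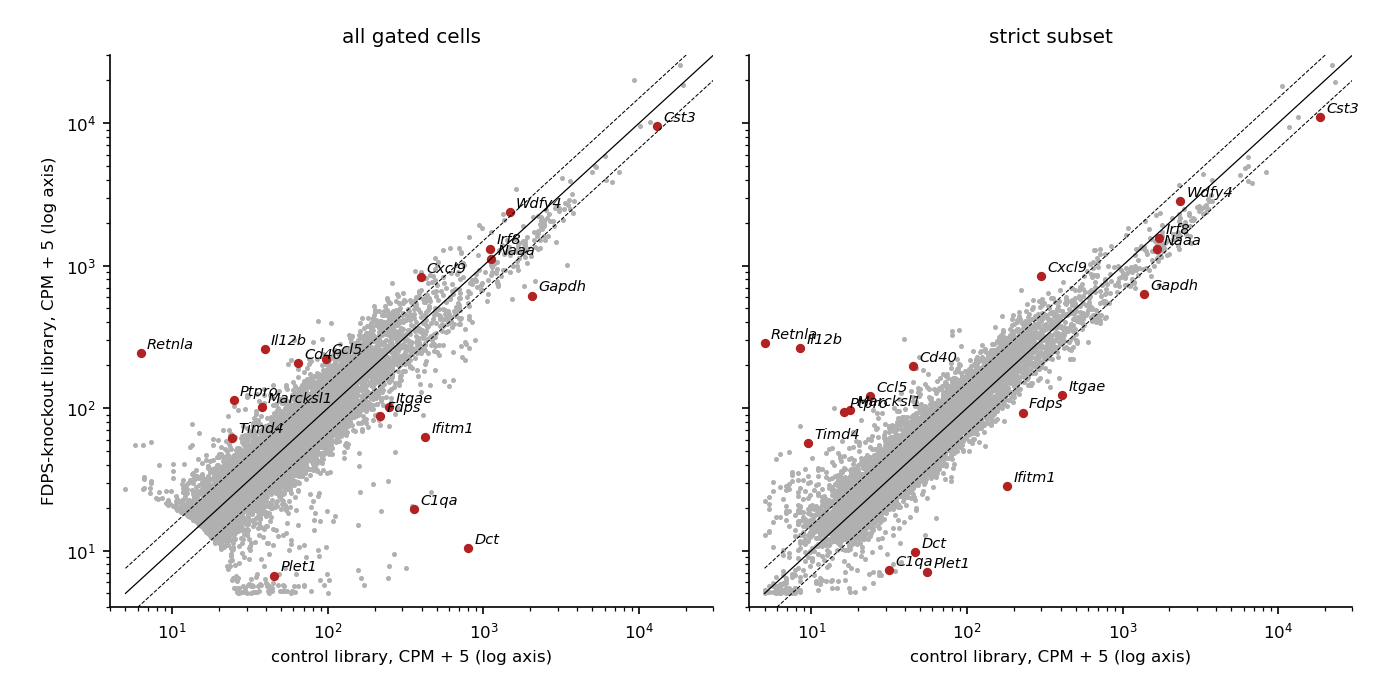
Levels of the 8563 measured genes in control (x axis) and FDPS-knockout cDC1 (y axis), as CPM plus 5 on log axes, in all gated cells (left) and in the strict subset (right). Each point is a gene, the solid line marks equal levels, the dashed lines 1.5-fold, and named genes are in red. Dct and C1qa lie far below the solid line in the gate. They move toward it in the strict subset, whose limits use both genes. Itgae and Ifitm1 stay below the solid line and Cd40, Timd4 and Ptpro above it.

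Genes that define cDC1 differed by member. Batf3, Cadm1 and Tlr3 were within 1.5-fold, Itgae was lower in the knockout library, and Wdfy4, Flt3, Xcr1 and Cst3 passed 1.5-fold in only 1 of the gate and the strict subset. Batf3, a transcription factor of the lineage, was at 165 and 135 CPM (strict subset 184 and 192), Cadm1, an adhesion molecule, at 663 and 625 CPM (729 and 736), and Tlr3, a sensor of double-stranded RNA, at 166 and 148 CPM (206 and 236). Cst3, a protease inhibitor abundant in cDC1, was at 9560 and 13089 CPM (log2 ratio -0.45), and at 10966 and 18609 CPM in the strict subset (-0.76). Wdfy4 was at 2379 and 1466 CPM (0.70), and at 2844 and 2349 CPM in the strict subset (0.28). Flt3, the growth factor receptor of DCs, was at 344 and 212 CPM (0.69), and at 391 and 341 CPM in the strict subset (0.20). Xcr1, which chose the cells, was at 204 and 274 CPM, and at 255 and 445 CPM in the strict subset. Itgae encodes the integrin CD103 of tissue and migratory cDC1 (ENSMUSG00000005947, chromosome 11, 73090583 to 73147446, plus strand, GRCm38). Knockout gated cells held 96.2 CPM (89.7 to 103) of it, and control gated cells 242 CPM (229 to 256), a log2 ratio of -1.29. It was at 118 and 404 CPM in the strict subset (-1.73). With cells of the strict subset thinned to 5000 UMIs, an Itgae UMI was held by 35.0% (29.2 to 41.2) in the knockout library and by 76.7% (68.5 to 83.7) in the control library, against 2.87% and 1.37% of T cells. The unthinned shares were 52.7% and 94.7%. Centred for gene length, the ratio was -1.55. The knockout gate held 46.0% and the control gate 67.5% of all Itgae UMIs of their library.

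Of the 20 measured surface and uptake receptors, which include the gate genes Xcr1 and Clec9a, 5 were higher and 2 lower (14.6% and 12.3% of all genes). The median was 0.28 (all genes 0.07). Stably higher were 3 and stably lower 1 (8.77% and 3.95% of all genes). Timd4 encodes Tim-4, a receptor for the phosphatidylserine of dying cells (chromosome 11, 46810800 to 46844332). Its level was 57.1 CPM (52.1 to 62.5) and 19.1 CPM (15.7 to 23.1), with 46 of the 106 control UMIs in 1 cell. In the strict subset it was at 51.9 and 4.46 CPM (log2 ratio 2.59). A Timd4 UMI was found in 12.8% (9.01 to 17.6) and 1.55% (0.188 to 5.49) of thinned cells of the strict subset, and in 0.164% and 0.146% of T cells. Dpp4, a surface peptidase, was at 405 and 210 CPM (0.93). Gpr141b, an orphan receptor, was at 59.1 and 25.6 CPM (1.07). In cDC2 Timd4 went the other way, at 24.2 and 55.2 CPM.

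Of 19 measured factors of DC fate 7 were higher (14.6% of all genes) and 0 lower (median 0.30, in the strict subset 0.20, against 0.07 and 0.09 for all genes), and 5 were stably higher (8.77% of all genes). In all other retained cells the median of this list was 0.48 (all genes 0.08), and in cDC2 it was 0.15 (all genes 0.08). Kit, the receptor for stem cell factor, was at 207 and 95.6 CPM (1.08). Notch2, a receptor that DC subsets need, was at 516 and 228 CPM (1.16), and Etv6, a repressor of the Ets family, at 1919 and 926 CPM (1.05). In thinned cells of the strict subset Kit was found in 57.2% and 42.6%, and in 1.75% and 2.25% of T cells. Zeb2 and Tcf4, which other DC lineages use, differed with the subset taken. Zeb2 was at 502 and 481 CPM in the gate but 215 and 80.9 CPM in the strict subset, and Tcf4 at 178 and 144 CPM but 158 and 61.8 CPM. Notch2 and Etv6 are long genes, and centred for length their log2 ratios were 0.69 and 0.58.

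Genes of DC maturation were higher in the knockout library. Of 27 measured genes, of which Ccr7 was used by the gate, 19 were higher (against 14.6% of all genes) and 0 lower, with a median of 0.998. The median in the strict subset was 0.91, and without cells rich in Ccr7, Fscn1 or Il12b it was 0.76. In that last version 16 were higher and 1 lower, against 1095 and 456 of all 8563 genes. Stably higher were 15 (against 8.77% of all genes). Without dividing cells the median of the list in the gate was 0.32. Cd40, through which helper T cells license DCs (chromosome 2, 165055627 to 165072948), was at 201 CPM (192 to 211) among knockout gated cells, against 59.2 CPM (52.9 to 65.9) among control ones (log2 ratio 1.69). One knockout cell, also the richest in Il12b and with 73631 UMIs in all, held 315 of the 1683 Cd40 UMIs. Cd40 was at 192 and 39.8 CPM in the strict subset (2.14), and without the Ccr7, Fscn1 or Il12b cells its log2 ratio was 1.43. In gated cells without dividing ones it was 0.66, and that of Relb, below, was 0.25. A Cd40 UMI was found in 28.0% (22.6 to 33.9) and 18.6% (12.3 to 26.4) of thinned cells, whose intervals overlap, against 1.48% and 2.10% of T cells.

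NF-kappaB subunits and regulators were among these genes. Relb, a subunit that DC maturation needs, was at 118 and 53.4 CPM (1.08), Nfkb2 at 60.3 and 34.1 CPM (0.74), and Birc3, an NF-kappaB target that limits cell death, at 278 and 114 CPM (1.25). Birc3 was found in 60.3% (54.0 to 66.3) and 45.0% (36.2 to 54.0) of thinned cells of the strict subset. Marcksl1, an actin-linked protein of migrating DCs, was at 96.2 and 32.5 CPM (1.43), and found in 13.6% and 1.55% of thinned cells. Cd83, a surface marker of mature DCs, was at 392 and 184 CPM (1.07), but was found in 44.7% and 49.6% of thinned cells, so its higher sum did not go with more positive cells. Ccl5, a T cell chemokine, was at 217 and 91.6 CPM, and T cells express it themselves (a UMI in 85.1% and 86.4%), so T cells give no background for it, and the part of free RNA was not tested. The same list had 3 genes higher and 6 lower in the cDC2 gate (median -0.15). Of all 8563 genes 1199 were higher and 784 lower in that gate (median 0.08). Cd40 was at 79.8 and 151 CPM there. In all other retained cells the median of the maturation list was 0.41 (all genes 0.08), and in the mature gate 0.24 (all genes 0.06). The difference between cDC1 and other cells, cDC2 among them, could not be tested with 1 library a group.

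The rule itself keeps out cells with both Ccr7 and Fscn1, and it removed 21 knockout and 14 control cells. Of the cells left, Ccr7 was held at 2 or more UMIs by 24 knockout and 12 control gated cells, and Fscn1 by 4 and 0. The 7 mature DC markers, these 2 gate genes among them, summed to 188 and 110 CPM in the gate, while in the mature gate Fscn1 alone was at 1317 and 1496 CPM.

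**Figure D3:**
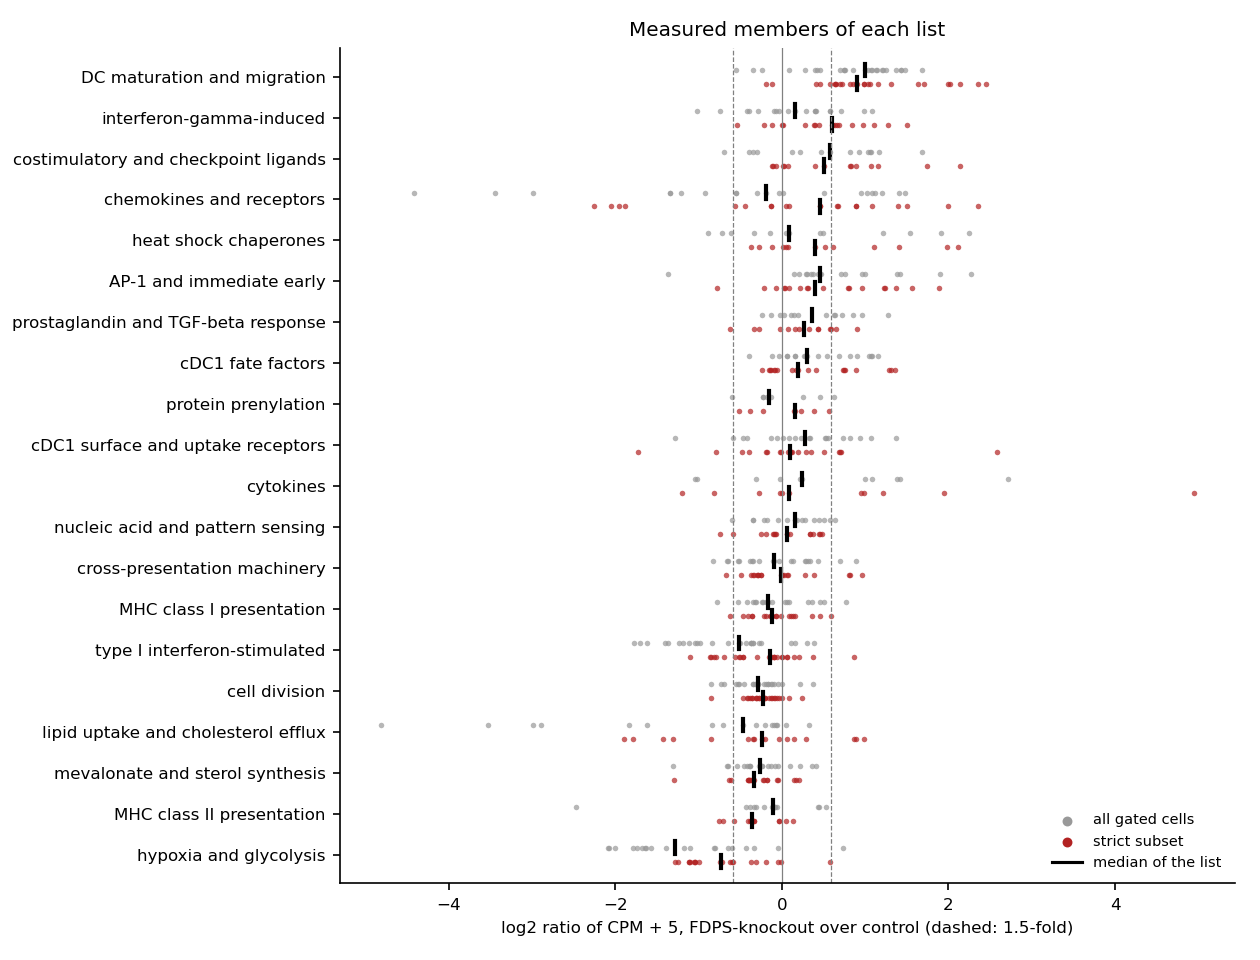
Log2 ratios of CPM plus 5, FDPS-knockout over control, of the measured members of the 20 gene lists, in all gated cells (grey) and in the strict subset (red). Each point is a gene, black ticks are list medians, dashed lines mark 1.5-fold, and lists are ordered by the strict median, from DC maturation (0.91) to hypoxia and glycolysis (-0.73).

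Of the 15 measured costimulatory and checkpoint ligands, 7 were higher and 1 lower (14.6% and 12.3% of all genes; median 0.58, strict subset 0.51), and 5 were stably higher (8.77% of all genes). Besides Cd40 and Cd83 these were Icosl, the ligand of Icos (62.5 and 30.5 CPM), Tnfsf9, the 4-1BB ligand (32.4 and 13.0 CPM), and Cd200 (20.5 and 7.39 CPM). Cd86, the most abundant ligand of CD28 here, was at 392 and 282 CPM (0.47), and was found in 71.2% and 72.1% of thinned cells. Cd274, which encodes PD-L1, was at 144 and 191 CPM (-0.40), and at 101 and 100 CPM in the strict subset.

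Of 11 measured cytokine genes 5 were higher and 2 lower (median 0.25), against 14.6% and 12.3% of all genes. Il15 and Tnf were stably higher (8.77% of all genes). In the strict subset without Ccr7, Fscn1 or Il12b cells, 2 cytokine genes were higher and 2 lower, with a median of -0.04. Of all 8563 genes 1095 were higher and 456 lower in that version. Tnf, which itself activates NF-kappaB, was at 85.5 and 29.6 CPM (1.39). Il15, which sustains CD8 T and NK cells, summed to 103 CPM (96.1 to 110) against 46.0 CPM (40.5 to 52.0), and was found in 31.9% (26.3 to 38.0) and 17.1% (11.01 to 24.7) of thinned cells of the strict subset, against 4.27% and 2.69% of T cells. Il12b, the shared subunit of interleukins 12 and 23 (chromosome 11, 44400063 to 44414033), was at 253 and 34.3 CPM. Few cells held that sum. One knockout cell held 1379 of 2113 Il12b UMIs, and 1 control cell 163 of 190. Il12b was detected in 15 of 388 knockout cells (3.87%, 2.18 to 6.30) and 7 of 223 control cells (3.14%, 1.27 to 6.36). The 9 knockout and 3 control cells with at least 5 UMIs all held at least 2 of Ccr7. Without dividing cells its log2 ratio was -1.15, against 2.72 with them, and in the strict subset without Ccr7, Fscn1 or Il12b cells it was -0.04. The gate held 59.2% of all Il12b UMIs of the knockout library and 12.2% of those of the control library, and 33.5% and 1.94% without the richest cell of each. In the gate for mature DCs Il12b was at 868 and 271 CPM.

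Chemokine genes differed by member. Cxcl9, which draws T cells through Cxcr3 (chromosome 5, 92321347 to 92328079, minus strand), summed to 827 CPM (807 to 846) against 389 CPM (373 to 406), a log2 ratio of 1.08, and was at 840 and 294 CPM in the strict subset. The share of thinned cells with a Cxcl9 UMI was 39.7% (33.7 to 46.0) and 31.8% (23.9 to 40.6). The knockout gate held 6907 (31.5%) of the 21960 Cxcl9 UMIs of its library, and the control gate 2156 (2.84%) of 75899. The lower control share thus went with a larger library total. In cDC2 Cxcl9 was at 187 and 601 CPM. Ccl2, Ccl7 and Ccl8, which recruit monocytes, were lower, and Ccl2 was at 4.07 and 66.9 CPM. A Ccl2 UMI was found in 14.7% of thinned control cells of the strict subset, and in 14.4% of control T cells, the level of free RNA. Of the 21 measured members, with the gate gene Ccr7 among them, 7 were higher and 7 lower (median -0.19), against 14.6% and 12.3% of all genes. In the strict subset 9 were higher and 4 lower, against 12.9% and 5.36% of all genes. The median was 0.45 there, or 0.14 without Ccr7, Fscn1 or Il12b cells. Stably higher were 6 and stably lower 3, against 8.77% and 3.95% of all genes.

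Interferon genes differed by class and by the cells taken. Of 19 measured interferon-gamma-induced genes 3 were higher and 2 lower in the gate (median 0.16), against 14.6% and 12.3% of all genes. In the strict subset, drawn after seeing the data, 10 were higher and 0 lower (0.60), where 12.9% of all genes were higher. Stably higher were 3, against 8.77% of all genes. Gbp5, a guanylate-binding protein, was at 167 and 82.2 CPM (0.98), or 0.22 without dividing cells. Its UMIs were found in 22.6% (17.6 to 28.2) and 18.6% (12.3 to 26.4) of thinned cells of the strict subset, whose intervals overlap. Of 27 measured type I interferon-stimulated genes 13 were lower (12.3% of all genes) and 0 higher in the gate, with a median of -0.52. The median in the strict subset was -0.15, with 6 lower and 1 higher, against 5.36% and 12.9% of all genes. Stably lower were 5 (3.95% of all genes), namely Isg15, Ifitm3, Irf7, Oasl1 and Ifit2. Others moved close to equal levels there, such as Rtp4, at 20.5 and 53.2 CPM in the gate and 9.32 and 9.87 CPM in the strict subset. Isg15, a ubiquitin-like protein, was at 124 and 391 CPM (-1.62) in the gate and 104 and 193 CPM (-0.86) in the strict subset, with a UMI in 22.96% (18.0 to 28.6) and 41.9% (33.2 to 50.9) of thinned cells, and in 14.6% and 31.3% of T cells. Irf7, which drives interferon production, was at 78.0 and 190 CPM. The list was lower in cDC2 too, with 24 of 27 lower (median -1.28), against 784 of all 8563 genes (0.08). It was also lower in all other retained cells (-1.15, all genes 0.08). Most MHC genes were within 1.5-fold in the gate. Cd74, the invariant chain, was at 9527 and 10088 CPM, and B2m, the light chain of class I, at 1875 and 2338 CPM. Of the 21 measured class I genes 1 was higher and 1 lower, and of 14 class II genes 0 and 1, against 14.6% and 12.3% of all genes. The class II median was -0.11 in the gate and -0.35 in the strict subset, where 0 were higher and 2 lower (12.9% and 5.36% of all genes). The median of all genes in the strict subset was 0.09, and that of class I genes was -0.12.

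Glycolysis genes were lower in the knockout gate, and lower in all other cells too. Of 20 measured hypoxia and glycolysis genes 16 were lower (against 12.3% of all genes) and 1 higher, with a median of -1.28. Stably lower were 13 (against 3.95% of all genes). In the strict subset the median was -0.73, in cDC2 -1.30 and in all other retained cells -1.54. Gapdh was at 612 and 2058 CPM (strict subset 623 and 1361), Pgk1 at 152 and 628 CPM (158 and 384) and Ldha, which makes lactate, at 268 and 708 CPM (288 and 597). A Ldha UMI was found in 68.1% and 89.1% of thinned cells of the strict subset, and in 65.2% and 91.7% of T cells. Slc2a1, the glucose transporter Glut1, was at 34.0 and 63.1 CPM.

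Promoter sequence is shown for 3 genes that were lower in the knockout gate. Ldha and Pgk1 are of the hypoxia and glycolysis list, whose median was -1.28 in the gate and -0.73 in the strict subset. Isg15 is of the type I interferon-stimulated list, whose median was -0.52 in the gate but -0.15 in the strict subset. Each sequence is the 250 bases before a RefSeq start, on GRCm38.p6, 5′ to 3′ on the gene's strand. Capitals mark ACGTG on either strand (the core of the hypoxia response element) in Ldha and Pgk1, and GAAANNGAA on either strand (the core of the interferon-stimulated response element) in Isg15. Ldha is at chr7:46845554-46845803 (plus), Pgk1 at chrX:106186850-106187099 (plus) and Isg15 at chr4:156200819-156201068 (minus). Ldha has 2 RefSeq starts, and the window of the other one, at chr7:46846832-46847081, held 0 matches and is not shown.
Ldha: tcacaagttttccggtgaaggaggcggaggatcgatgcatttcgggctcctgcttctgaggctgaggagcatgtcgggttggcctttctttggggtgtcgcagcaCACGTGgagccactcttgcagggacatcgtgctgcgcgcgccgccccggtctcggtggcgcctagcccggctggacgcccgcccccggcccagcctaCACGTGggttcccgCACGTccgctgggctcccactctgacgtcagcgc
Pgk1: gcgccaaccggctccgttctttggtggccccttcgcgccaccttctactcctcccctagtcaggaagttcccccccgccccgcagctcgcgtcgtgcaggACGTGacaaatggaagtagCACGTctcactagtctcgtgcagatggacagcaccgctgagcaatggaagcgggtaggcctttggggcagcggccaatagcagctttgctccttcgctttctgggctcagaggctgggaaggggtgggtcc
Isg15: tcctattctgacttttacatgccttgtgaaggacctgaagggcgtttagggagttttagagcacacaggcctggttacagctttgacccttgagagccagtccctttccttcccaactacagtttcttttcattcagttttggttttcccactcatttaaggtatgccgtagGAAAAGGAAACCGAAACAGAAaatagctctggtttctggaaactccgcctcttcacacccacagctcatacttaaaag

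The letters ACGTG were in a window of 9 of the 17 hypoxia and glycolysis genes with a RefSeq window, and of 18.5% of all 27025 genes. In Ldha 2 of its stretches are CACGTG, which matches on both strands. GAAANNGAA was in 10 of 21 type I interferon-stimulated genes, in 12 of 13 interferon-gamma-induced genes and in 8.18% of all genes, with 3 overlapping matches in Isg15. TTCNNNGAA, the gamma-activated site, was in 7 of 13 interferon-gamma-induced genes and 8.13% of all genes. The kappaB consensus was in 4 of 19 maturation genes and 8.23% of all genes. A match is a description of letters, and the members of these lists were chosen as targets of these pathways.

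Of 20 measured mevalonate and sterol genes 0 were higher and 3 lower (median -0.26), against 14.6% and 12.3% of all genes. Of them 1 was stably lower, against 3.95% of all genes. Fdps, the gene knocked out in the tumour line, summed to 82.5 CPM (76.4 to 88.9) against 211 CPM (199 to 224) in gated cells, and to 88.0 against 223 CPM in the strict subset. A Fdps UMI was found in 28.4% and 50.4% of thinned cells of the strict subset, and in 7.55% and 23.8% of T cells. It was also lower in the cDC2 gate, at 47.8 and 137 CPM. Of 8 protein prenylation genes 1 was higher and 1 lower (median -0.16, strict subset 0.15), against the same shares of all genes. In the strict subset 0 of these 8 passed 1.5-fold, while 12.9% of all genes were higher and 5.36% lower there.

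The remaining lists are read against the 14.6% of all genes that were higher and 12.3% lower, or 8.77% and 3.95% stably so. Of 21 measured cross-presentation genes 2 were higher and 3 lower (median -0.10), and 1 of each was stable. Syk, the kinase that signals from Clec9a, was stably higher at 196 and 104 CPM, and Sec61a1, a channel subunit of the endoplasmic reticulum, stably lower at 54.0 and 87.6 CPM. Rab43, a trafficking protein that cDC1 use in cross-presentation, was at 745 and 550 CPM, and at 802 and 763 CPM in the strict subset.

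Of 17 measured sensing genes 1 was higher and 1 lower (median 0.16), with Myd88, the adaptor of Toll-like receptors, stably lower at 43.8 and 68.7 CPM. Of 14 genes of the prostaglandin and TGF-beta response 6 were higher and 0 lower (median 0.36), with Smad4 and Skil stably higher. Skil, which restrains Smad signalling, was at 102 and 49.6 CPM. Of 17 lipid uptake and efflux genes 0 were higher and 8 lower (median -0.47). The 4 stably lower ones were Cd63, Apoe, Fabp5 and Msr1, all of them abundant in macrophages, and Apoe was at 14.0 and 214 CPM, or 10.9 and 34.4 CPM in the strict subset. With free RNA subtracted Fabp5 had a log2 ratio of 2.17, the reverse of -2.99 without. Heat shock genes had 4 of 13 higher and 3 lower, all 4 stably, and Hspa1a was at 392 and 100 CPM, and 771 and 243 CPM in cDC2. Immediate early genes had 8 of 18 higher and 1 lower, with Fos at 117 and 55.7 CPM, and 275 and 61.5 CPM in cDC2.

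The genes with the most extreme ratios, list members included, were these. The 12 lowest were Dct (5.39 and 789 CPM), Pmel, Ptgds, Tyrp1, Gpnmb, Cd63, Mlana, Ccl8, Unc5c, C1qa, C1qb and C1qc, most of them known genes of melanoma cells or macrophages. Dct was found in 1.95% and 17.1% of thinned cells of the strict subset, and in 1.61% and 20.8% of T cells. Of the 12 highest, Retnla, a macrophage gene, was at 239 and 1.26 CPM. It was found in 18.7% of thinned knockout cells of the strict subset and in 28.5% of knockout T cells, so it did not exceed the level of free RNA. Skap1, Gm2682 and Gzma are expressed by T or NK cells themselves, and were found in 4.67%, 6.23% and 2.33% of thinned knockout cells of the strict subset, so T cells give no background for them. Skint3, Fosb, St8sia6, Cd226, Il1rl1, 4933406J09Rik, Hspa1b and Il12b completed the 12.

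Several stable differences lay above the level in T cells. Ptpro, a receptor phosphatase (chromosome 6, 137252319 to 137463233), was at 108 CPM (101 to 115) and 19.8 CPM (16.3 to 23.9). It was found in 33.1% (27.4 to 39.2) and 3.10% (0.851 to 7.75) of thinned cells of the strict subset, and in 2.19% and 0.879% of T cells. It was also higher in cDC2, at 222 and 92.7 CPM. Lower in the knockout library was Plet1, a surface protein of epithelial progenitors and of some DCs (chromosome 9, 50494525 to 50505482), at 1.68 and 40.2 CPM. Its UMIs were found in 0.389% and 8.53% of thinned cells, and in 0.0274% and 0.146% of T cells. Ifitm1, a small membrane protein induced by interferon, was at 57.8 and 417 CPM, and in the strict subset at 23.4 and 177 CPM, with a UMI in 3.11% (1.35 to 6.04) and 11.6% (6.66 to 18.5) of thinned cells. In cDC2 Ifitm1 was at 188 and 1835 CPM. Wtip, a cytoskeletal adaptor, was at 1.44 and 19.5 CPM.

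**Figure D4:**
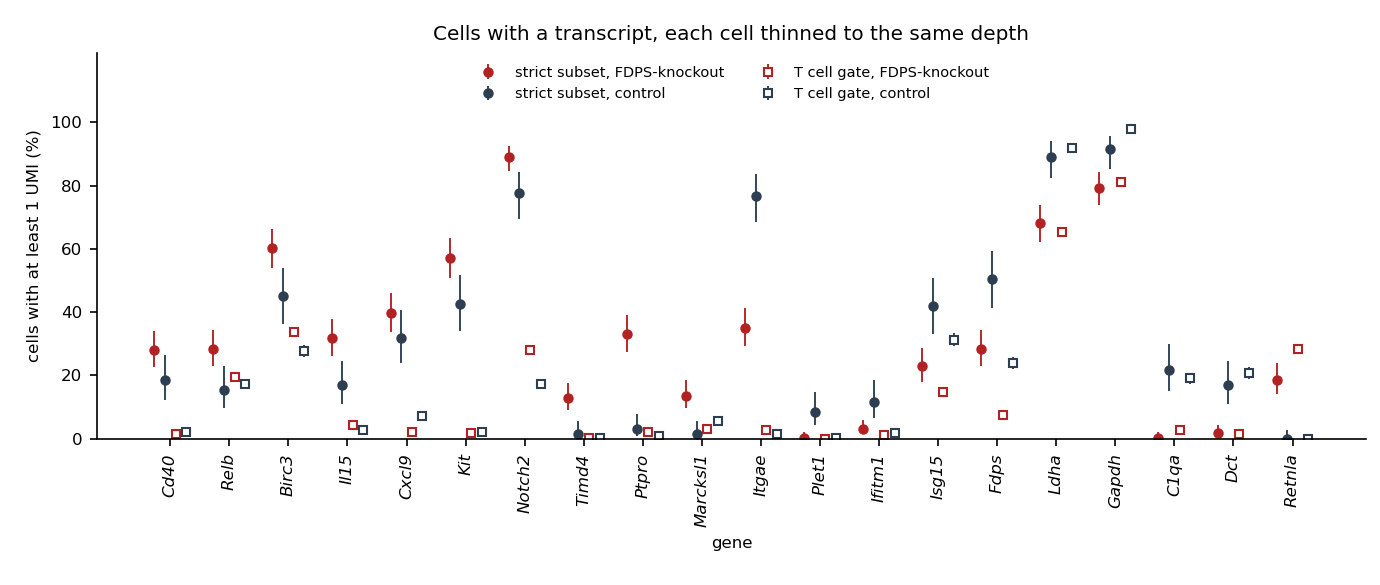
Share of cells with at least 1 UMI of 20 genes, each cell thinned to 5000 UMIs, in the strict subset (filled circles; 257 FDPS-knockout and 129 control cells) and in T cells (open squares; the level of free RNA for genes that T cells do not express), with exact 95% binomial intervals. Itgae is in more control cells and Ptpro and Timd4 in more knockout cells, with T cells near 0, while the intervals of C1qa (control) and Dct (control) hold the share in T cells of the same library and Retnla (knockout) lies below it.

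The genes highest in gated cells over other cells include the 2 genes that chose the cells. Ranked by the lower of the 2 libraries' ratios over all other retained cells, the first 12 included Clec9a, Xcr1, Ccser1, Wdfy4, Sept3, Gcsam, 5730522E02Rik, Zfp366, Cst3, Htr7 and Gm43914. Gm43914 lies within Clec9a on the same strand and may share its reads. Wdfy4 was 22.05-fold and 21.5-fold above other cells. Ccser1, a long gene, was at 558 and 239 CPM, and 5730522E02Rik, a long non-coding RNA, at 233 and 87.8 CPM. Since the gate was set on 2 of these genes, the ranking describes the cells and tests nothing.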

How the data were processed

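The deposited values were UMI counts per gene and barcode, whole numbers made by Cell Ranger 7.2.0, per the file headers, on mm10, per the submitters' processing notes. The 2 libraries held 9130 (FDPS-knockout) and 10882 (control) barcodes with 127186298 and 208936136 UMIs. Retained cells had at least 200 genes and under 10% mitochondrial UMIs (95.3% and 86.5% of barcodes). Gene positions came from GENCODE vM21 (99.8% of IDs matched) and promoters from RefSeq.

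From the counts, UMIs were summed over gated cells per library and scaled to CPM; differences are log2 of (CPM + 5), knockout over control, and a call is a difference past 1.5-fold. With 1 library a group there was no test. Intervals are exact Poisson or Clopper-Pearson at 95%, and that of a ratio of shares is a log interval. Shares of cells were taken after thinning cells to 5000 UMIs. T cells (at least 3 UMIs of Cd3e and Cd3d, none of Xcr1 and Clec9a) gave the share that free RNA reaches for genes they do not express. Scrublet's automatic threshold marked 0% of knockout cells, so cells with the highest scores were removed at 0.8% per 1000 barcodes in 1 alternative only. Named genes were the 4 given markers, the 12 highest and 12 lowest ratios, up to 4 members with the largest ratio and 2 most abundant per list, and the 12 genes highest over other cells; others were added after their values were seen. The members and the 20 lists were chosen with earlier results of these data known. The strict subset, the stability rule, the removal of single cells and of Ccr7, Fscn1 or Il12b cells, the length classes and the promoter motifs were chosen after seeing the data; C1q limits of 5 and 2 UMIs were also looked at. A form of the interferon motif longer by 1 A was also searched. Python 3.11.15 and scanpy 1.11.5 were used. Some genes that the rule names are not reported here.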

Additional observations from a re-analysis of the deposited data

How the results depend on the processing

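The share ratio of cDC1 stayed within its interval in 7 of 8 other settings and was 1.32 with Csf1r and C1q barcodes left out of the total. The number of higher genes stayed within 1.5 times in 15 of 15 settings. The number of lower genes was 1637 with no filter on low values, 544 without cells with C1q UMIs, 678 centred within length classes, 459 in the strict subset and 456 in that subset without Ccr7, Fscn1 or Il12b cells. Of 300 list medians 277 were counted as close to their reported value and 23 as moved. Some medians changed sign. Chemokines were at -0.19 in the gate and 0.45 in the strict subset, and protein prenylation at -0.16 and 0.15. Cytokines were at 0.25 in the gate, and at -0.04 in the strict subset without Ccr7, Fscn1 or Il12b cells. MHC class I was at -0.17 in the gate and 0.20 centred within length classes. Without dividing cells, maturation was at 0.32, MHC class II at -0.39, mevalonate at -0.053 and immediate early genes at 0.30. With free RNA subtracted, MHC class II was at -0.40, type I interferon at -0.17, sensing at 0.41, cell division at -0.14 and lipid uptake at 0. Centred within length classes, MHC class I was at 0.20, cell division at -0.055 and mevalonate at -0.048. Without C1q cells, MHC class II was at -0.43 and cell division at -0.36. Weighted equally by cell, cell division was at -0.35 and immediate early genes at 0.25; scaled by the median ratio or without ribosomal and mitochondrial genes, cell division was at -0.36. Type I interferon was at -0.081 with at least 5 UMIs of Xcr1 and Clec9a, -0.15 in the strict subset and -0.10 there without Ccr7, Fscn1 or Il12b cells, where MHC class II was at -0.39; interferon-gamma was at 0.60 in the strict subset. Single genes reversed with free RNA subtracted (Ccl2 0.028, Fabp5 2.17, Gbp7 0.033, Hilpda 0.40, Lgmn 1.19, Retnla -0.28), without dividing cells (Cdc20 0.60, Il12b -1.15), without C1q cells (Cyp7b1 -0.23), in the strict subset (Ptgs2 -0.34) and there without Ccr7, Fscn1 or Il12b cells (Ptgs2 -0.74, Il12b -0.042). The cause was not tested. No paired analysis was possible because each group has 1 library.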

Other observations

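Cells that met the Xcr1 and Clec9a threshold were kept out of the cDC1 gate at 4 steps. The step on Cd3e and Cd3d removed 54 knockout and 37 control cells. Those kept out by Csf1r (87 knockout and 300 control cells) held 1291 and 10051 CPM of the C1q genes, and 3692 and 1572 CPM of Lyz2, the lysozyme of myeloid cells. Those kept out as mature (21 and 14 cells) held 1035 and 1613 CPM of Fscn1, an actin bundler of migrating DCs, and 1363 and 552 CPM of Il12b.

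Those kept out by Siglech (114 and 12 cells) held 2596 and 2043 CPM of Siglech, a receptor of plasmacytoid DCs, and 1897 and 3148 CPM of Ly6c2. They also held 2279 and 2112 CPM of Irf8 and 256 and 281 CPM of Clec9a, while Xcr1 was at 2.32 CPM and listed at 0.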
